A study of Mus musculus with 2 samples.

Results

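The genes described here encode the enzymes of the citric acid cycle and enzymes linked to it: malic enzymes, transaminases, pyruvate carboxylase, a mitochondrial phosphoenolpyruvate carboxykinase and ATP citrate lyase. They were taken as a list of 31 gene symbols, and all 31 were found, each with 1 identifier, among 55536 annotated genes. RNA came from the gastrocnemius, a calf muscle made mainly of fast fibres, of B6CASTF1/J females aged 14 days, the F1 hybrid of C57BL/6J and CAST/EiJ. The series holds 1 group of 2 total RNA libraries, each from 300 ng of RNA with ERCC spike-ins (synthetic RNAs added in known amounts), and no treatment or other genotype. The labels number the libraries as biological replicates 1 and 2 and give both the same donor entry. They mention 3 females for both, while the tissue text of replicate 2 names a single female, so whether animals were pooled is unclear. The spread between the libraries may therefore be technical in part.

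The citric acid cycle oxidises the acetyl group of acetyl-CoA in the mitochondrial matrix, releasing carbon dioxide and passing electrons to NADH and, at succinate dehydrogenase, to the ubiquinone pool of the respiratory chain. Muscle uses it to burn pyruvate and fatty acids. Malate dehydrogenases and aspartate transaminases on both sides of the mitochondrial membrane form the malate-aspartate shuttle, which carries reducing equivalents from cytosolic NADH into the matrix. Malic enzymes, pyruvate carboxylase and the carboxykinase move carbon between the cycle and pyruvate or phosphoenolpyruvate.

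The gene tables held 35591969 counts for replicate 1 and 42105815 for replicate 2. The 5 muscle fibre markers were abundant in both libraries, at a summed 93161 and 98455 TPM (a level corrected for gene length and scaled to the same sum in each library). Of 5 liver markers, which should be absent, none reached 1 TPM in both libraries, and Serpina1a was listed at 0 in both. Traces of others differed between the libraries, with Alb at 43 and 3 counts. All 31 members had counts that the deposited tables treated as almost wholly their own: the deposited posterior standard deviation of the count was above 0 for Suclg2, Me1 and Got2 only, and for 0 members above 1% of the count. Idh3b overlaps Nop56 on the opposite strand, at 15.7 and 18.1 TPM. Mdh1 overlaps Wdpcp and Pcx overlaps Lrfn4 in the same way, each partner between 1.20 and 2.33 TPM. Whether the counting used strand is not given in the sources used here, so reads of such partners could have been exchanged.

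Most of the members were abundant. In both libraries 30 of 31 reached 1 TPM, 25 reached 10 TPM and 17 reached 100 TPM. Only Ogdhl stayed under 1 TPM, and 6 members were under 10 TPM in both libraries. The median member stood at a mean of 134.5 TPM, with quartiles of 21.8 and 236 TPM, against a median of 8.40 TPM over 11017 detected protein-coding genes. Together the members summed to 4769 TPM in replicate 1 and 4092 TPM in replicate 2 (4431 ± 479, SD, n = 2).

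**Figure D1:**
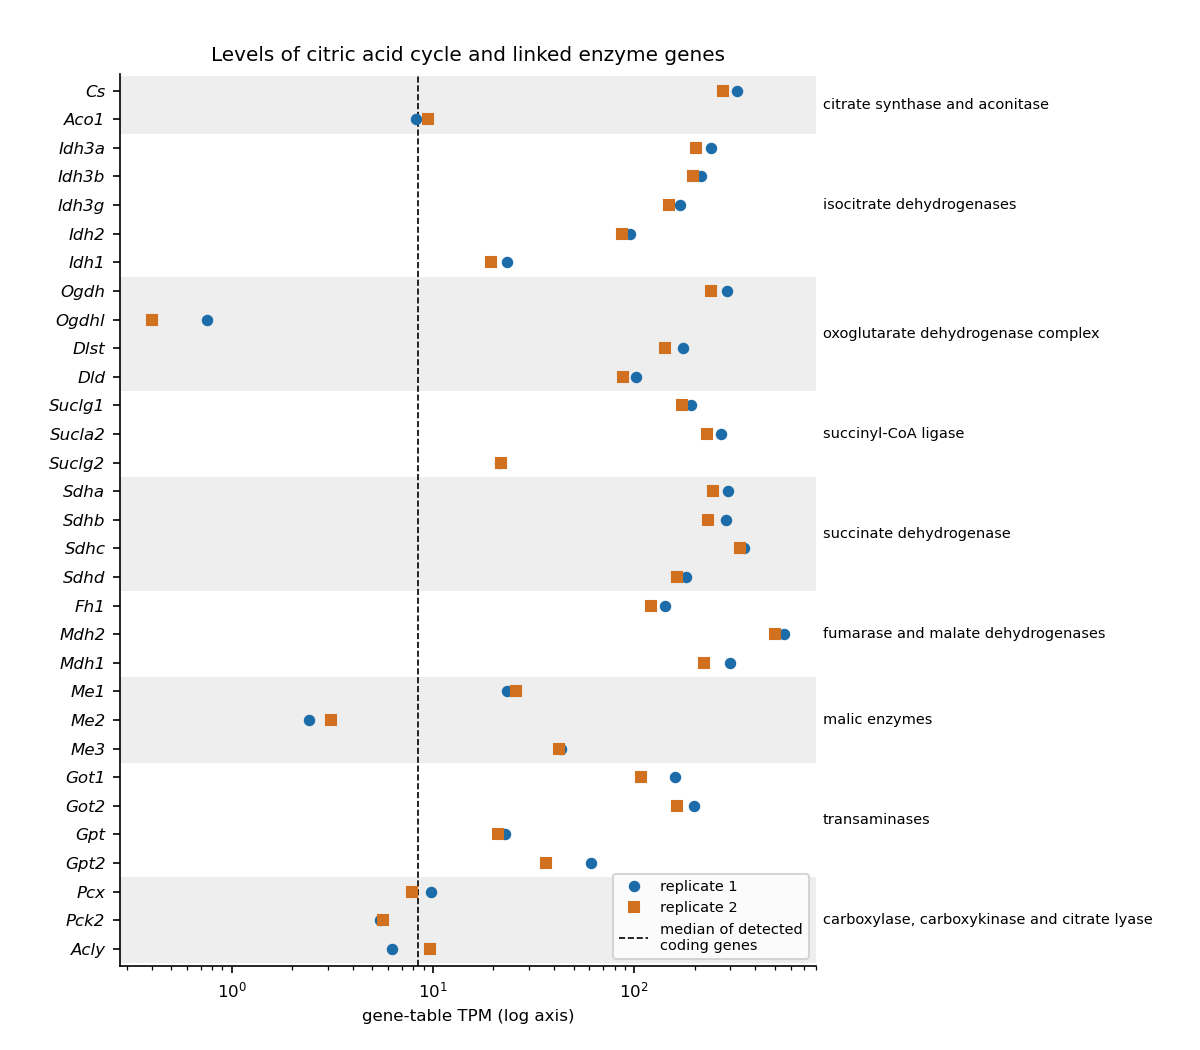
Gene-table TPM (horizontal, log axis) of the 31 genes, grouped by step, with a circle for replicate 1 and a square for replicate 2. The dashed line is the median of detected protein-coding genes, 8.40 TPM. Mdh2 stands highest at 559 and 503 TPM and Ogdhl lowest at 0.75 and 0.40 TPM.

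By step, in the gene tables, the 4 succinate dehydrogenase subunits summed to the highest level, 1112 and 980.0 TPM (1046 ± 93.5, SD, n = 2). Fumarase and the malate dehydrogenases followed at 1001 and 848 TPM, and the 5 isocitrate dehydrogenase genes at 742 and 654 TPM. The 4 genes of the oxoglutarate dehydrogenase complex summed to 567 and 473 TPM, and the 3 of succinyl-CoA ligase to 481 and 426 TPM. At the other end stood the 3 malic enzymes, at 68.9 and 71.3 TPM, and the carboxylase, carboxykinase and citrate lyase, at 21.6 and 23.2 TPM. The steps differ in their number of genes, so these sums order RNA and not enzyme capacity. The direct quantification, the second deposited one made from the reads, ordered them otherwise: fumarase and the malate dehydrogenases (1359 TPM on average) lay above succinate dehydrogenase (1184 TPM), and the oxoglutarate complex (1055 TPM) above the isocitrate dehydrogenases (991 TPM). Ranked one by one, the members form 30 neighbouring pairs. In 13 of them the deposited intervals of the 2 genes were apart in both libraries, and in 11 both library values of one gene lay above both of the other. Sdha, Ogdh, Mdh1, Sdhb and Sucla2, between 250.01 and 270.5 TPM on average, were close: each neighbouring pair among them had overlapping intervals in at least 1 library, while Sdha and Ogdh each lay clear of Sucla2 in both.

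Citrate synthase (Cs, chr10:128337734-128362479, mm10, plus strand) joins acetyl-CoA to oxaloacetate and is often used as a marker of mitochondrial content. It stood at 323 TPM in replicate 1 and 278 TPM in replicate 2, above 98.2% of detected protein-coding genes. Aco1, the cytosolic aconitase (chr4:40143081-40198338), which also serves as an iron-regulatory RNA-binding protein, stood at 8.23 and 9.41 TPM. ATP citrate lyase (Acly), which splits citrate in the cytosol to supply acetyl-CoA for lipid synthesis, stood at 6.27 and 9.71 TPM. Cs was 51.5-fold and 28.7-fold above it.

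Isocitrate dehydrogenase exists as an NAD-linked matrix enzyme of 3 kinds of subunit and as NADP-linked enzymes of the matrix (Idh2) and cytosol (Idh1). Idh3a, the catalytic subunit (chr9:54586334-54604661, plus strand), stood at 240.0 and 203 TPM. Its regulatory partners Idh3b and Idh3g stood at 215 and 196 TPM and at 169 and 149 TPM. Idh3a and Idh3b differed by 1.12-fold and 1.03-fold, and their intervals were not apart in both libraries. Idh3a was 1.42-fold and 1.36-fold above Idh3g, with intervals apart in both. Over the 3 subunits, Idh3a held 37.8% ± 1.02 of the TPM, Idh3b 35.2% ± 0.94 and Idh3g 27.1% ± 0.09 (SD, n = 2). Idh2 stood at 95.04 and 87.3 TPM, 2.53-fold and 2.32-fold below Idh3a. Over protein-coding transcripts alone the mean log2 ratio of Idh2 over Idh3a was -0.27, against -1.28 for whole genes. Idh1 was lower still at 23.4 and 19.5 TPM, so Idh2 held 81.0% ± 1.08 of the NADP-linked total.

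The oxoglutarate dehydrogenase complex turns 2-oxoglutarate into succinyl-CoA. Its dehydrogenase component Ogdh (chr11:6291633-6356642, plus strand) stood at 289 and 242 TPM. The related Ogdhl, known mainly from brain, had 60 and 47 counts, 0.75 and 0.40 TPM, and held 0.21% ± 0.07 of the summed level of both genes. Dlst, the succinyltransferase component, stood at 175 and 142 TPM. Dld, the lipoamide dehydrogenase shared with the pyruvate and branched-chain complexes, stood at 102 and 88.2 TPM. Ogdh was 1.65-fold and 1.71-fold above Dlst and 2.83-fold and 2.74-fold above Dld, with intervals apart each time.

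Succinyl-CoA ligase makes ATP or GTP, depending on which beta subunit joins the common alpha subunit Suclg1. Suclg1 stood at 191 and 173 TPM. The ATP-forming beta subunit Sucla2 (chr14:73525319-73596142, plus strand) stood at 269 and 231 TPM. The GTP-forming beta subunit Suclg2 (chr6:95473009-95718800, minus strand) stood at 21.5 and 21.9 TPM. Sucla2 was thus 12.5-fold and 10.6-fold above Suclg2 and held 92.0% ± 0.89 of the beta subunit TPM, a difference far larger than the spread between the libraries. It was also 1.41-fold and 1.34-fold above the alpha subunit, with intervals apart in both libraries. In the direct quantification that gap was smaller, with Sucla2 at 369 and 311 TPM and Suclg1 at 291 and 280 TPM.

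Succinate dehydrogenase is both a cycle enzyme and complex II of the respiratory chain. The flavoprotein subunit Sdha stood at 295 and 246 TPM and the iron-sulfur subunit Sdhb at 286 and 234 TPM, a ratio of 1.03 and 1.05 with intervals that were not apart in both libraries. The membrane anchor Sdhc (chr1:171127165-171150603, minus strand) stood at 351 and 337 TPM and the other anchor Sdhd at 181 and 163 TPM. Sdhc was 1.23-fold and 1.44-fold above Sdhb in the gene tables. In the direct quantification the order was the opposite, with Sdhc at 262 and 245 TPM and Sdhb at 443 and 360.3 TPM. Sdhd was 1.57-fold and 1.44-fold below Sdhb.

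Fumarase (Fh1), which adds water to fumarate, stood at 143 and 121 TPM. Mitochondrial malate dehydrogenase Mdh2 (chr5:135778480-135790398, plus strand) was the most abundant member at 559 and 503 TPM, above 99.2% of detected protein-coding genes. The cytosolic enzyme Mdh1 (chr11:21556787-21572367, minus strand) stood at 299.9 and 224 TPM. Mdh2 was 1.86-fold and 2.25-fold above Mdh1, with intervals apart in both libraries. The mean log2 ratio, 1.03, was 0.38 over protein-coding transcripts alone and 1.57 in the direct quantification.

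The transaminases exchange amino groups between amino acids and cycle intermediates. For aspartate, mitochondrial Got2 stood at 199.5 and 163 TPM and cytosolic Got1 (chr19:43499752-43524605, minus strand) at 160.1 and 109 TPM, so the log2 ratio of Got2 over Got1 was 0.32 and 0.58. For alanine, mitochondrial Gpt2 (chr8:85492576-85527560, plus strand) stood at 61.1 and 36.4 TPM and cytosolic Gpt at 22.7 and 21.2 TPM. Gpt2 was 2.69-fold and 1.72-fold above Gpt, a ratio that itself differed between the libraries. In each of these mitochondrial and cytosolic pairs, and for Idh2 and Idh1, the mitochondrial form was higher in both libraries, in the gene tables and in the direct quantification.

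Malic enzymes turn malate into pyruvate. Cytosolic, NADP-linked Me1 stood at 23.4 and 26.0 TPM, and mitochondrial, NAD-linked Me2 at 2.43 and 3.10 TPM. Mitochondrial, NADP-linked Me3 (chr7:89632392-89854359, plus strand) stood at 43.1 and 42.2 TPM, 1.85-fold and 1.62-fold above Me1, and held 60.9% ± 2.42 of the malic enzyme TPM. That order holds for whole genes only, since little of the Me3 TPM was assigned to its coding transcript, as described with the transcripts. Pyruvate carboxylase (Pcx), which makes oxaloacetate from pyruvate, stood at 9.84 and 7.84 TPM. Mitochondrial phosphoenolpyruvate carboxykinase (Pck2) stood at 5.49 and 5.63 TPM, and the intervals of Pcx and Pck2 were not apart in both libraries.

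**Figure D2:**
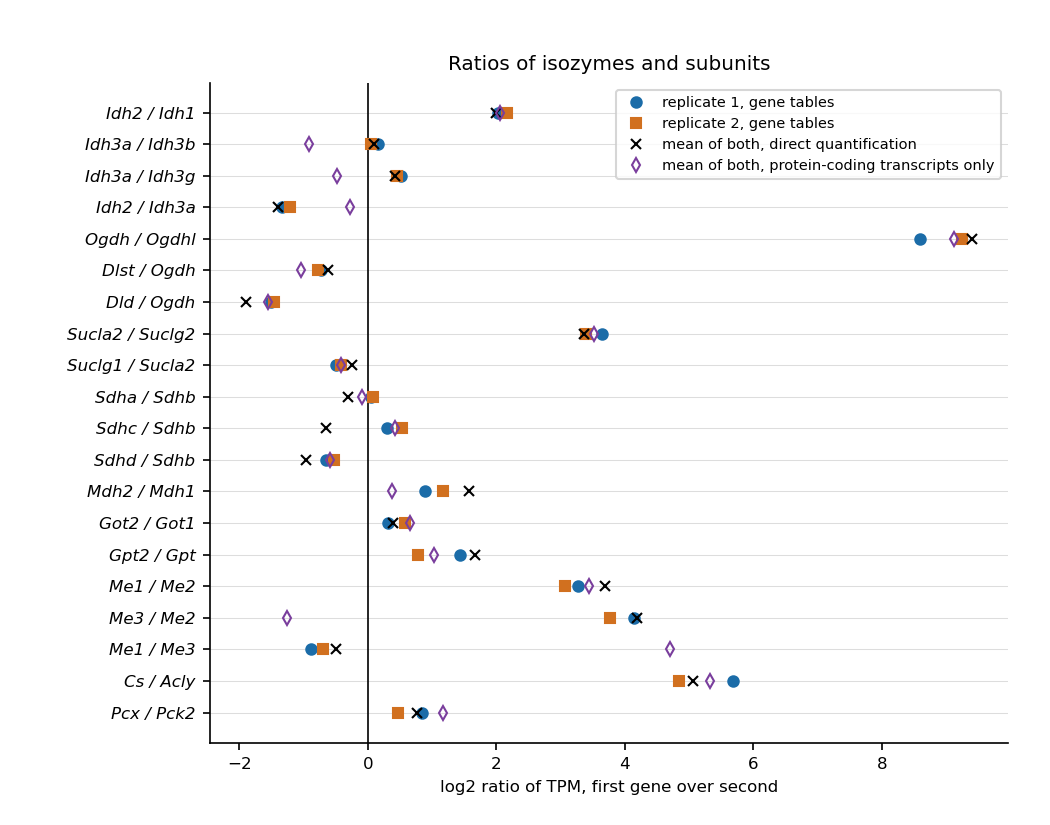
Log2 ratio of TPM of the first gene over the second (horizontal) for 20 pairs of isozymes or subunits: circles and squares are replicates 1 and 2 in the gene tables, crosses the mean in the direct quantification, open diamonds the mean over protein-coding transcripts alone. Of the pairs with intervals apart in both libraries, Sdhc/Sdhb changes side in the direct quantification. Of the same pairs, Idh3a/Idh3g, Me3/Me2 and Me1/Me3 change side when only coding transcripts are summed, which was done in the gene tables.

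Over the 20 ratios compared, the deposited intervals were apart in both libraries for 17, and the first gene was the higher in 14. Levels depended on the quantification as well as on the gene. The direct quantification gave a median member 1.43 times its gene-table TPM, against 1.34 times for detected protein-coding genes. The ratio was highest for Fh1 at 2.42, Dlst at 2.26 and Ogdh at 2.07, and Sdhc, at 0.74, was the one member below 1. Estimated counts differed less, by 0.84 to 1.18 times, and for each of these 4 genes the TPM moved more than the counts.

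Transcripts of 30 members could be compared, since Sdhd has 1 annotated transcript. The same transcript led in both libraries for 27 of the 30, and for 28 in the direct quantification. In the gene tables it held at least 90% of the gene's TPM in both libraries for 9 of them, among them Cs, Idh3b, Sdhb and Got2. Protein-coding transcripts held at least 90% of the gene-table TPM in both libraries for 20 of the 31 members. The members above 90% differed in the direct quantification. For Dld the coding share was 96.2% and 92.8% in the gene tables against 78.1% and 73.3% directly. For Sdha it was 87.6% and 91.7% against 98.8% and 98.9%. Transcripts annotated as non-coding, with a retained intron or as targets of nonsense-mediated decay (the removal of RNAs with an early stop codon) held at least 20% in both libraries for 5 members in the gene tables and 8 in the direct quantification. Idh3a, Me3 and Pck2 were in both sets. How many of all genes pass these thresholds is not given here, so the counts do not set the members apart. The transcript shares are estimates of the quantifiers, not counts of reads across single junctions.

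**Figure D3:**
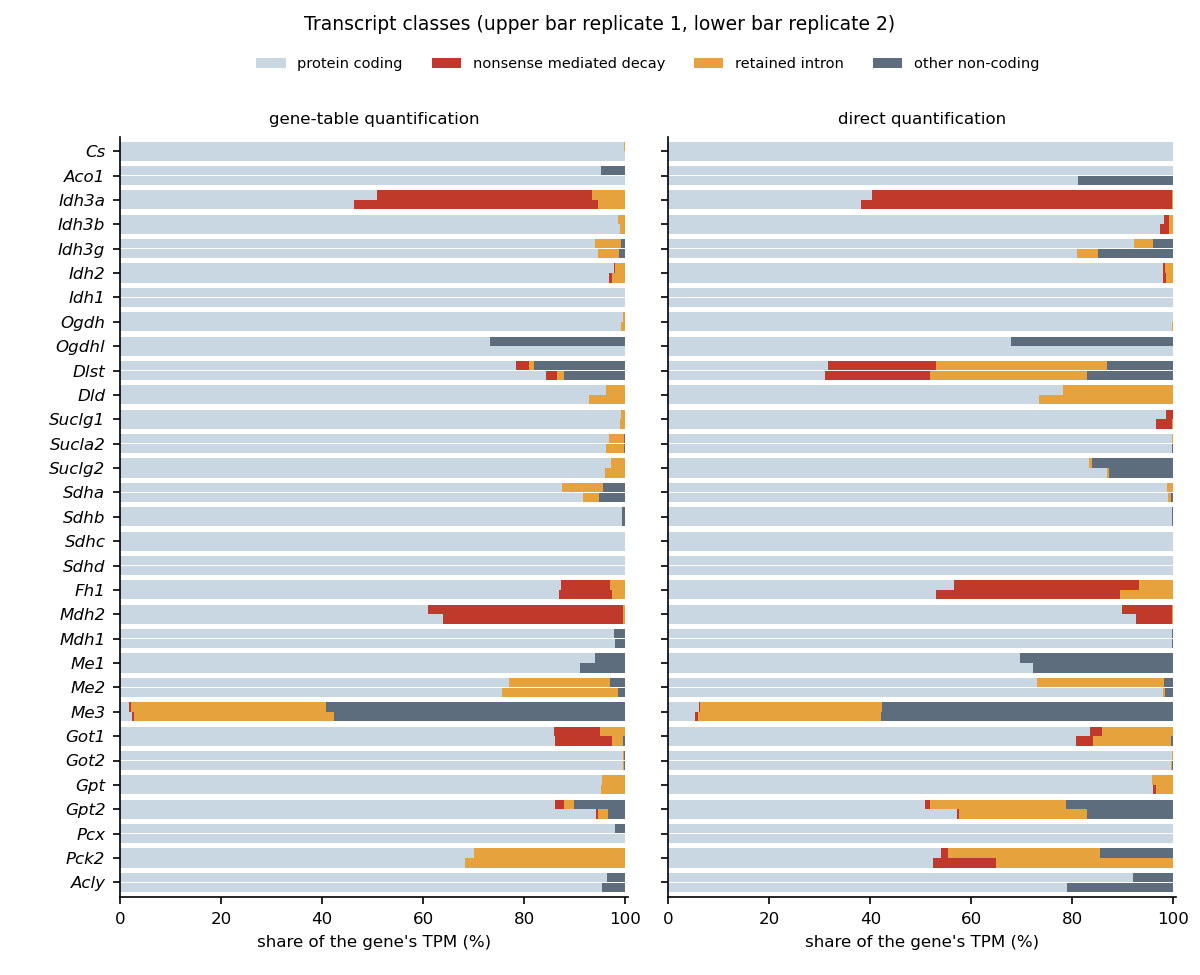
Share of each gene's TPM (horizontal, percent) assigned to protein-coding, nonsense-mediated decay, retained-intron and other non-coding transcripts, with the gene-table quantification on the left and the direct quantification on the right. The upper bar of each pair is replicate 1 and the lower is replicate 2. Me3 and Idh3a show large non-coding shares on both sides, while Mdh2, Dlst, Fh1 and Gpt2 differ between the sides.

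In the gene tables Me3 was the only member led in both libraries by a transcript not annotated as protein-coding. In the direct quantification Me3 was again led by one, as were Idh3a and, by the nonsense-mediated decay transcript Fh1-204 at 36.4% and 36.5%, Fh1. Me3-201, annotated as a processed transcript, held 57.9% and 55.8% of its TPM, with 723 and 788 expected counts. Me3-203, which ends in a retained intron, held 38.3% and 39.2%, with 793 and 919 expected counts. The coding transcript Me3-202 held 1.84% and 2.32%, or 98.1 and 139 expected counts. The direct quantification also put most of the level on the first 2, with 55.8% and 56.0% for Me3-201, 35.5% and 35.7% for Me3-203, and 6.00% and 5.37% for Me3-202. There Me3-202 had 348 and 365 estimated counts, of 1781 and 2070 for the gene. In TPM, the coding transcript stood at 0.79 and 0.98 in the gene tables and at 3.33 and 3.01 in the direct quantification. Among coding transcripts alone, in the gene tables, Me1 held 88.4% ± 1.05 of the malic enzyme TPM, Me2 8.13% ± 0.75 and Me3 3.42% ± 0.29 (SD, n = 2), so Me3 was lowest where the whole gene was highest. In the direct quantification coding Me2 stood at 2.22 and 2.97 TPM, below coding Me3.

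**Figure D4:**
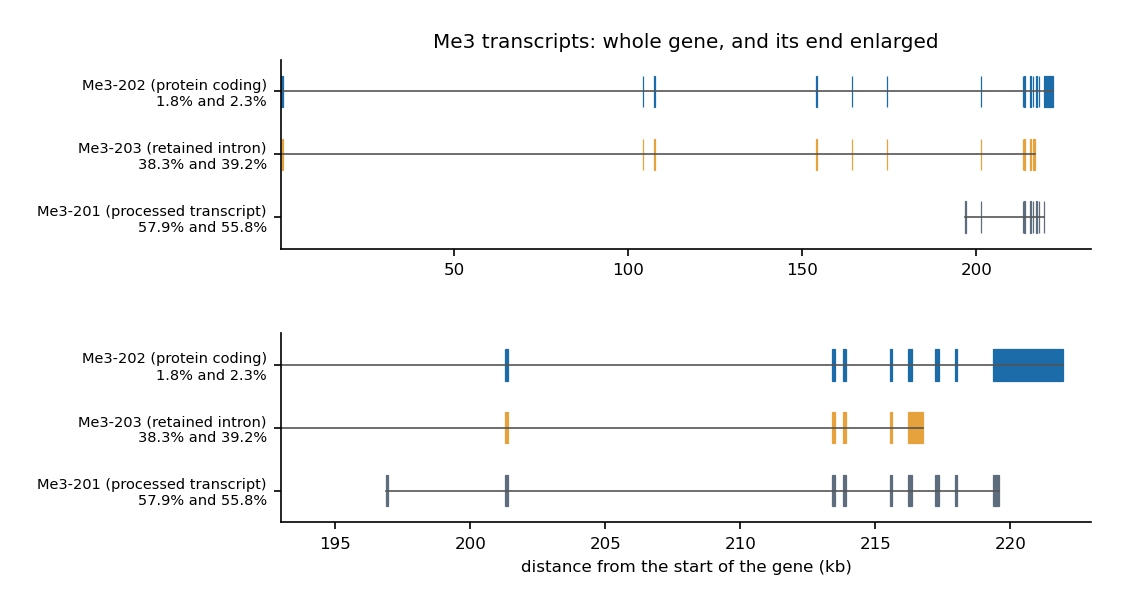
Exons (boxes) of 3 Me3 transcripts by distance from the start of the gene in kb, for the whole gene above and its end enlarged below, with each transcript's share of the gene's TPM in replicates 1 and 2. Me3-201 begins 197 kb after the start of Me3-202, and Me3-203 shares the start region of Me3-202 but ends earlier.

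Me3-201 starts inside the gene, at chr7:89829282 in mm10, between exons 6 and 7 of Me3-202. Its exon 1 of 59 bases (chr7:89829282-89829340) occurs in neither Me3-202 nor Me3-203, whereas its exon 2 (chr7:89833697-89833806) is exon 7 of both. The first bases of Me3-201 are shown because they are what sets its start apart; capitals mark the first 20 bases of the exon it shares with the coding transcript.
Me3-201 start: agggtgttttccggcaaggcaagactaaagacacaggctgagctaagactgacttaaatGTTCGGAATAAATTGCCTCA

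Idh3a was split between a coding and a nonsense-mediated decay transcript. The coding Idh3a-205 held 50.8% and 46.4% of its TPM, and Idh3a-204 held 42.7% and 48.2%, so the leading transcript differed between the libraries. The direct quantification put Idh3a-204 first in both, at 59.5% and 61.5%. Idh3a-204 carries an added exon of 95 bases (chr9:54592161-54592255) between exons 2 and 3 of Idh3a-205. The start of that exon is shown because it holds the annotated stop codon, marked in capitals (chr9:54592182-54592184).
Idh3a-204 added exon: ggcatcgtttgcattactattTAA
Counting only coding transcripts, Idh3a held 23.3% ± 2.01 of the subunit TPM, below Idh3b at 44.2% ± 1.55 and Idh3g at 32.5% ± 0.45 (SD, n = 2).

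Mdh2 had a like split that the quantifications did not share. The coding Mdh2-201 held 60.7% and 63.7% in the gene tables, and Mdh2-203, annotated for nonsense-mediated decay, held 38.6% and 35.7%. In the direct quantification Mdh2-203 held 9.84% and 7.26%. Mdh2-203 lacks exon 2 of Mdh2-201, which is 169 bases long (chr5:135783305-135783473). The junctions after exon 1 are shown because they tell the 2 transcripts apart; capitals mark the first 20 bases of the following exon.
Mdh2-201 junction: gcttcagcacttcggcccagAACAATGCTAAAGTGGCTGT
Mdh2-203 junction: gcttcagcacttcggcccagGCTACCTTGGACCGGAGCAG
Short transcripts differed between the quantifications in other members too, in both directions. Sdhc-203, 298 bases long, held 43.1% and 45.1% of Sdhc in the gene tables and 0 in the direct quantification. Mdh1-202, 549 bases long, held 39.0% and 36.3% against 10.5% and 5.91%. In contrast, Dlst-208, 550 bases long, held 0 and 0.49% in the gene tables against 25.1% and 21.7%, and Ogdh-206, 621 bases long, held 2.08% and 2.31% against 23.9% and 24.3%. For Sucla2, 2 coding transcripts shared the level in both quantifications: Sucla2-203 held 53.3% and 53.0% and Sucla2-201 held 43.5% and 43.2% in the gene tables.

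The libraries differed in one direction over most of the members. After scaling library sizes with TMM, 28 of 31 members were lower in replicate 2, against 48.6% of the 15734 genes with a summed count of at least 20. The median log2 ratio of replicate 2 over replicate 1 was -0.34 for the members and 0.01 for all of those genes. The exact binomial 95% interval of the ratio, which covers counting error only, lay wholly below 0 for 26 members and wholly above 0 for 1, Acly. It held 0 for 4 members, Aco1, Me1, Me2 and Pck2. The share of all tested genes with an interval clear of 0 is not given here, and at high counts small differences suffice for that. With 1 library on each side no test of the difference can be made, and in bulk tissue fewer cells of a type and less RNA per cell cannot be told apart.

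**Figure D5:**
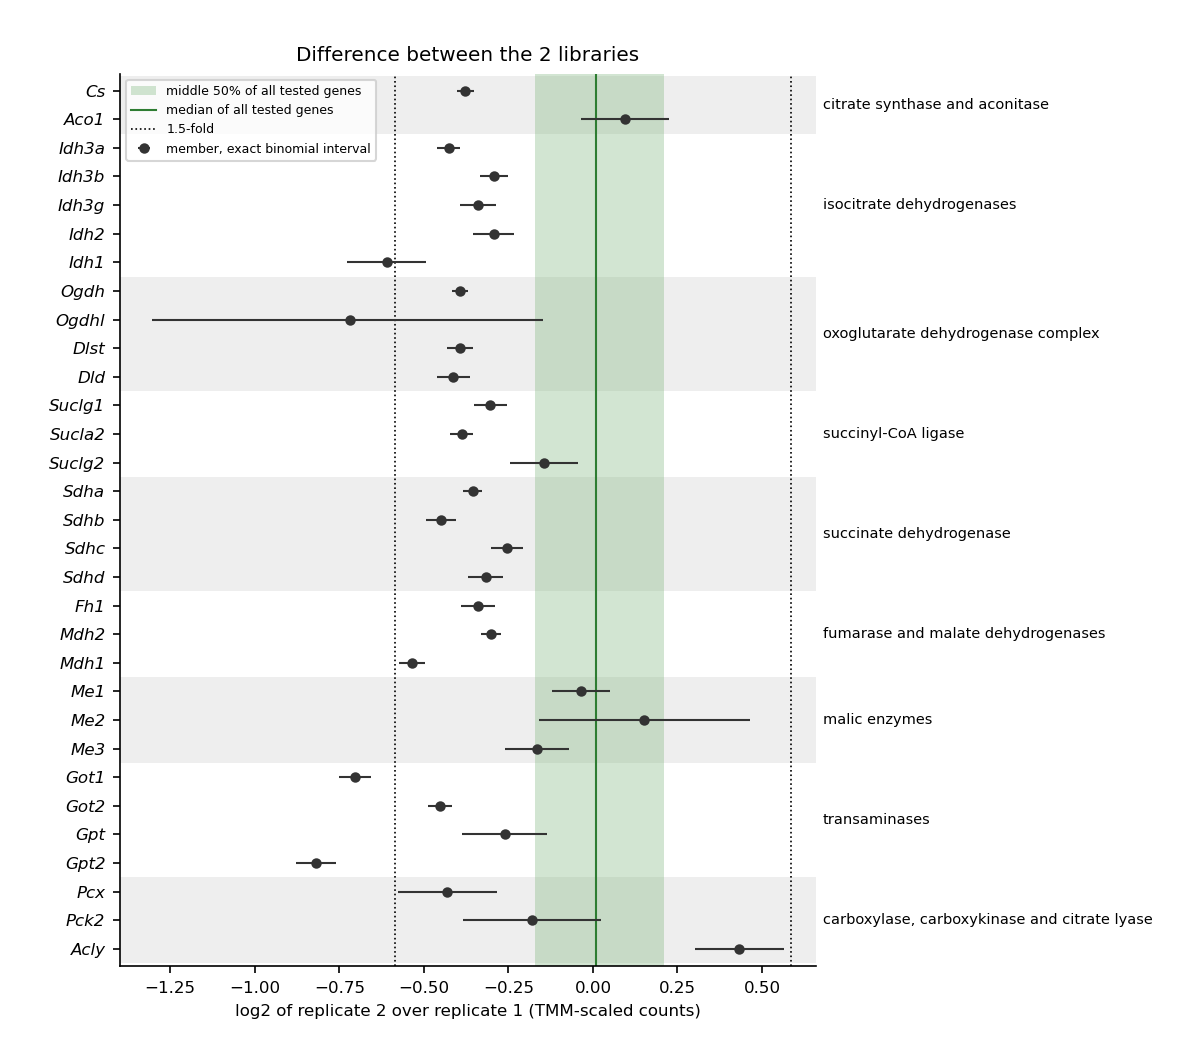
Log2 ratio of replicate 2 over replicate 1 of TMM-scaled counts (horizontal) for each member, with its exact binomial 95% interval. The green band and line are the middle 50% and the median of all tested genes, and dotted lines mark 1.5-fold. Most members lie to the left of the band, with Gpt2, Ogdhl and Got1 farthest from it, and Acly lies to its right.

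The differences were small in size. At least 1.5-fold lower in replicate 2 were 4 members, Gpt2, Ogdhl, Got1 and Idh1, against 5.65% of all genes tested. None was at least 1.5-fold higher, against 7.85%, and none differed 2-fold either way, against 4.66%. Gpt2 had 5452 and 3995 expected counts and was 1.76-fold lower (log2 -0.82, interval -0.88 to -0.76). Got1, with 8230 and 6534 counts, was 1.63-fold lower (log2 -0.70, interval -0.75 to -0.66). Idh1 was 1.53-fold lower on 1318 and 1116 counts, and its interval of -0.73 to -0.49 held the 1.5-fold line. Ogdhl was 1.65-fold lower on 60 and 47 counts, with an interval of -1.31 to -0.15.

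All 17 members with a mean of at least 100 TPM were lower in replicate 2, by log2 ratios from -0.70 to -0.25 with a median of -0.38. Among 556 nuclear protein-coding genes of that level, 61.3% were lower and the median was -0.09. Ogdh, Dlst and Dld lay at -0.39, -0.39 and -0.41, and the 4 succinate dehydrogenase subunits between -0.45 and -0.25. Mdh1, at -0.54, was lower than Mdh2, at -0.30, with intervals that did not overlap. The 3 members with ratios above 0, Aco1, Me2 and Acly, were each under 10 TPM. Acly, with 734 and 1281 counts, lay at 0.43 (interval 0.30 to 0.57).

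The scaling sets where 0 lies. Scaling by total counts, by TPM or by spike-in total moved the median of all genes from 0.01 to 0.14, 0.17 and 0.23, and the members moved with it. Relative to that median the members lay at -0.35 under TMM, DESeq2 size factors, total counts and spike-in total. That equality is fixed by arithmetic, since each of these scalings moves every gene by the same amount. In TPM the members lay at -0.38. Got1 and Idh1 were no longer 1.5-fold lower by total counts (log2 -0.58 and -0.48), by TPM (-0.56 and -0.27) or by spike-in total (-0.48 and -0.39), nor was Ogdhl by spike-in total (-0.50), while Gpt2 was in each of these. By spike-in total, 24 of 31 members were lower in replicate 2, against 20.4% of all genes, with a member median of -0.12.

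Markers of other cells and fibre types also differed between the libraries. Their log2 ratios and calls are given under TMM, and small ratios can change sign under another scaling. Of 9 slow and oxidative fibre markers, 5 were at least 1.5-fold higher in replicate 2 and 2 were lower, with a summed 3046 and 3870 TPM, a median log2 ratio of 0.59 and none at 0. Myh7, the slow myosin heavy chain, stood at 288 and 528 TPM, whereas Myh2, the fast oxidative one, stood at 1070.4 and 886 TPM. The 5 muscle fibre markers were all slightly lower under TMM, with a median of -0.08, while their summed TPM was higher, at 93161 and 98455. The 5 Schwann cell markers were all higher, at a summed 256 and 676 TPM with a median of 1.05 and none at 0. All 4 tested erythroid markers, of 5, were at least 1.5-fold lower, at a summed 2053 and 1043 TPM and a median of -1.17. The 2 tested liver markers, Alb and Cyp2e1, were also at least 1.5-fold lower, with a median of -3.20 on few counts. Fibroblast markers had a median of 0.31 (2793 and 4502 TPM, 1 of 6 lower), endothelial ones of -0.20 (184 and 176 TPM, 4 of 5 lower), macrophage ones of 0.07 (38.2 and 44.1 TPM, 1 of 5 lower) and adipocyte ones of -0.17 (290.1 and 205.7 TPM, 6 of 10 lower), and none of these lists had a marker at 0. The adipocyte list was split, with 3 markers at least 1.5-fold lower and 2 at least 1.5-fold higher. Most of its sum came from Fabp4 (158.5 and 122.2 TPM) and Plin4 (109.4 and 61.7 TPM). Adipoq, a defining adipocyte marker, stood at 1.59 and 1.91 TPM. The part of these differences in the lower member levels of replicate 2 was not tested.

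A further 28 genes of the pathway were followed as a list. In both libraries 24 reached 1 TPM, and Mdh1b was listed at 0 in both. Of 27 with enough counts, 23 were lower in replicate 2, against 48.6% of all tested genes, with a median log2 ratio of -0.23. At least 1.5-fold lower were 3 of the 27, against 5.65%, and 1 was at least 1.5-fold higher, against 7.85%. Among those next to the members in the pathway, the pyruvate dehydrogenase subunits Pdha1, Pdhb and Dlat lay at -0.43, -0.38 and -0.39, and the mitochondrial aspartate-glutamate carrier Slc25a12 at -0.43. Pdk4, a kinase that switches pyruvate dehydrogenase off, stood at 641 and 154 TPM, a log2 ratio of -2.19 (interval -2.22 to -2.16). The citrate carrier Slc25a1, which exports citrate to the cytosol where Acly acts, stood at 2.44 and 3.73 TPM and lay at 0.62. Pck1, the cytosolic counterpart of Pck2, stood at 2.75 and 1.58 TPM and lay at -0.67 (interval -1.02 to -0.33).

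Promoter letters were searched for 27 members with a RefSeq promoter entry (GRCm38.p6), 35 promoters in all, over 250 bases before the start and on both strands. The ERR half-site AAGGTCA was found in 1 of 35, that of Got1, against 4.08% of 32851 promoters. The NRF1 letters GCATGCG were found in 3 of 35, of Ogdh and Sdhb, against 3.02%, and in Ogdh the matches on both strands overlapped. The 2 Ogdh promoters overlap and hold the same match, so the 3 promoters hold matches at 2 places. The GABP letters CCGGAAG were found in 2 of 35, of Idh3g and Sdhd, against 6.91%. No member promoter held more than 1 of the motifs.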

How the data were processed

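Members, lists, pairs and tests were chosen with earlier results of these data known. For each library the authors deposited gene and transcript tables derived from transcriptome alignments, and another transcript table derived from the reads, on assembly mm10 with annotation M21, per the deposited notes; aligner and quantifiers: not given in the sources used here. Per the file headers, the gene tables hold expected counts (estimated reads per gene, not whole), TPM, a posterior mean TPM, and, treated as signal values, the deposited bounds of an interval around it (level not given in the sources used here) and the posterior standard deviation of the count. Isoform percent is the deposited share of a gene's TPM held by a transcript. The second deposited table holds estimated counts and TPM, summed here per gene and called the direct quantification. CAST/EiJ reads were quantified on a C57BL/6J reference, and their loss was not measured.

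Expected counts were rounded and scaled with TMM (edgeR 4.0.16, factors 0.957 and 1.05). Genes with a summed count of at least 20 were compared, with a prior count of 0.5, and called at 1.5-fold or 2-fold. With 1 library on each side, edgeR has no residual degrees of freedom, so no p-value is given. Intervals are exact binomial (Clopper-Pearson, 95%) and cover counting error only. The ratio was tested on simulated data. All 31 members and the listed pathway genes that share a step with them are named by rule; Pdk4, Slc25a1, Slc25a12 and single markers, and the transcripts other than leading ones, were named after their values were seen. Some genes that the lists and overlaps hold are not reported here. Alternatives were DESeq2 1.42.0 size factors, total counts, TPM, spike-in total, the direct quantification, and other filters and priors. A further alternative summed coding transcripts alone, in the gene tables. Scripts ran in R 4.3.3 and Python 3.11.15 with scipy 1.17.1, numpy 2.4.6, pandas 2.3.3 and matplotlib 3.10.9.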

Additional observations from a re-analysis of the deposited data

How the results depend on the processing

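The summed TPM of the members, 4431, was 6321 in the direct quantification, 9095 when TPM was rescaled over nuclear protein-coding genes and 3929 over protein-coding transcripts alone, an alternative chosen after seeing the data. It ranged from 4092 to 4769 with either library left out. The count of members at 1 TPM or more (30) and the count of pairs with the first gene higher (14) were the same with either library left out; the latter was 12 in the direct quantification and 11 over coding transcripts. Among pairs whose intervals were apart, single ratios changed side in 6 instances, and the cause was not tested. Over coding transcripts alone, in the gene tables, the log2 ratio was -0.48 for Idh3a/Idh3g, -1.25 for Me3/Me2 and 4.70 for Me1/Me3. Counts not divided by length gave -0.20 for Sdhc/Sdhb and 0.32 for Me1/Me3, and the direct quantification gave -0.66 for Sdhc/Sdhb. Of the pairs not apart, Idh3a/Idh3b was -0.92 over coding transcripts, and Sdha/Sdhb -0.31 directly and -0.09 over coding transcripts. The median log2 ratio between libraries, -0.34, was -0.21 by total counts, -0.21 by TPM and -0.12 by spike-in total. Members at least 1.5-fold apart, 4 lower and 0 higher, were 2 lower and 0 higher by total counts, 2 lower and 1 higher by TPM, and 1 lower and 1 higher by spike-in total, or 2 in all for the first and the last. The shares of all genes at least 1.5-fold lower and higher were 4.05% and 11.4% by total counts. They were 4.33% and 13.8% by TPM, and 3.14% and 15.2% by spike-in total. With no filter on low counts the median of all genes became -0.37, since genes at 0 in both libraries take the ratio of the prior counts. No paired analysis was possible because there is 1 group.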

Other observations

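In 2 members of low level the leading transcript differed between the libraries in both quantifications. For Acly, the coding Acly-203 led replicate 1 with 51.0% of the TPM and the coding Acly-201 led replicate 2 with 58.9%. Their expected counts were 389.8 and 459 for Acly-203 and 267 and 798 for Acly-201. The deposited posterior standard deviations were 72.5 and 84.5 counts for Acly-203 and 108 and 109 for Acly-201, so the lead in replicate 1 is uncertain. For Pcx, Pcx-201 led replicate 1 with 36.5% and Pcx-204 led replicate 2 with 44.5%, with deposited posterior standard deviations of 149 and 122 counts on 409.5 and 449.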
